A study of Mus musculus with 8 samples.

Results

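The genes described here are the transcription factors through which mouse cells respond to low oxygen and the enzymes that measure the oxygen, 10 of the 51789 genes in the deposited count table. They are the HIF alpha subunits Hif1a, Epas1 and Hif3a, the beta subunits Arnt and Arnt2, the prolyl hydroxylases Egln1, Egln2 and Egln3, the asparaginyl hydroxylase Hif1an, and Vhl. The members were chosen by name and not by a rule on their values, though earlier results of these data were known. All 10 were found. RNA came from whole mammary glands of female C57BL/6 mice 6 weeks after injection of small extracellular vesicles (sEVs) into the abdominal gland. sEVCTRL, prepared from medium that had not been conditioned by cells, was given to the control group (3 libraries). sEVNORM was released in normoxia (3 libraries) and sEVHYP in hypoxia, at 1% O2 (2 libraries), by cultured AT3 cells, which are mouse breast cancer cells able to metastasize. No group was left without an injection, and the age of these mice is not given in the sources used here. The study asked how sEVHYP changes the recipient gland and whether HIF1α takes part, and the counts show the mRNA of the oxygen-sensing genes in the injected gland. The paper reports HIF1α mRNA in sEVHYP from AT3 cells. Mouse mRNA brought by vesicles could not be told apart from that of the gland in these counts.

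HIF is a pair of proteins, an oxygen-regulated alpha subunit and a stable beta subunit, that binds DNA at a short hypoxia response element. When oxygen is present, the prolyl hydroxylases mark the alpha subunit, the VHL ubiquitin ligase recognizes the mark, and the subunit is degraded, while the asparaginyl hydroxylase (factor inhibiting HIF) keeps it from its coactivators. Most of this control acts on protein, which was not measured in these libraries. Some genes of the system, EGLN1 and EGLN3 among them, are also known as HIF targets and so take part in feedback. In the mammary gland the members can be read in fat, vessels, epithelium, immune cells and adjoining muscle at once, and in whole tissue fewer cells of a type and less RNA per cell cannot be told apart.

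The letters that the HIF pair reads are ACGTG or GCGTG, and they were searched on both strands in RefSeq promoter windows of the GRCm38.p6 build, from 250 bases before to 50 bases after each start site. Of the 10 members, 9 had a window, and Epas1 was not among them. At least 1 match stood in the windows of 6 members, beside 43.8% of all 32851 windows. The former counts members, of which Egln2 had more than 1 window, and the latter counts windows, so the units differ. The sequences shown are the upstream parts, from position -250 to -11, of 3 members: Hif3a, which was the member past the test in the comparisons with sEVHYP, Egln2, whose window held the most matches, and Egln3, a hydroxylase known for its induction by HIF. Capitals mark the matches, and a match on the opposite strand reads as CACGT or CACGC.
Hif3a, chr7:17062438-17062677, minus strand: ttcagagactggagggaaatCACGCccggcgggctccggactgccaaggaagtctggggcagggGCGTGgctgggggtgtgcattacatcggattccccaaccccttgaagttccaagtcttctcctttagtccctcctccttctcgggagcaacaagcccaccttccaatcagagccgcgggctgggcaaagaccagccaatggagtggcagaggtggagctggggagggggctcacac
Egln2, chr7:27166813-27167052, minus strand: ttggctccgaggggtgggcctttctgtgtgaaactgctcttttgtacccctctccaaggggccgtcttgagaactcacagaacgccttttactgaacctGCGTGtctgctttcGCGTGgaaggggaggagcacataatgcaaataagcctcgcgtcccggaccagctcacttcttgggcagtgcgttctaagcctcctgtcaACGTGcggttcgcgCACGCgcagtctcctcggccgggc
Egln3, chr12:54203885-54204124, minus strand: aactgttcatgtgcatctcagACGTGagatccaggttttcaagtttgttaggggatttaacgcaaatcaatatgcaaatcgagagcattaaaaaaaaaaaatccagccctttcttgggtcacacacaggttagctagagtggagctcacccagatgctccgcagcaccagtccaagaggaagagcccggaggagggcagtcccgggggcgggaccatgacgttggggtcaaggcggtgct
The Hif3a window held 2 GCGTG matches, at -230 on the opposite strand and at -186, and no ACGTG. The first Egln2 window held 6 matches, of which 2 share bases at -4 and -3 and lie past the part shown, and a second Egln2 window held 1. Egln3 had 1 ACGTG at -229. Egln1 had a GCGTG at -126 and an ACGTG at -68, Hif1a had 3 ACGTG matches of which 2 overlap, and Arnt had 1 GCGTG at -29. The windows of Arnt2, Hif1an and Vhl held neither motif.

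Levels of different genes were compared per length, as RPKM (CPM, counts scaled to a common TMM-adjusted library size, divided by the exon length in kilobases). Hif1a was the most abundant member, with a mean of 69.8 RPKM over the 8 libraries, above 96.2% of the 17858 genes tested. Epas1 followed at 47.8 RPKM, Egln1 at 18.4, Vhl at 10.4, Arnt at 6.72, Egln3 at 5.90, Egln2 at 3.37, Hif1an at 2.13, Hif3a at 0.892 and Arnt2 at 0.168. The ranges of Hif1a and Epas1 overlapped, from 42.8 to 109 and from 38.7 to 57.1 RPKM, and so did those of Arnt and Egln3, Egln3 and Egln2, and Hif1an and Hif3a. The ranges of Epas1, Egln1, Vhl and Arnt did not overlap with one another, and Egln2, at no less than 2.72 RPKM, stood just above Hif1an, at no more than 2.68. With the longest transcript in place of all exons, Arnt came to 12.4 RPKM and passed Vhl at 11.2, which left 8 of the 10 genes in the same place.

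**Figure D1:**
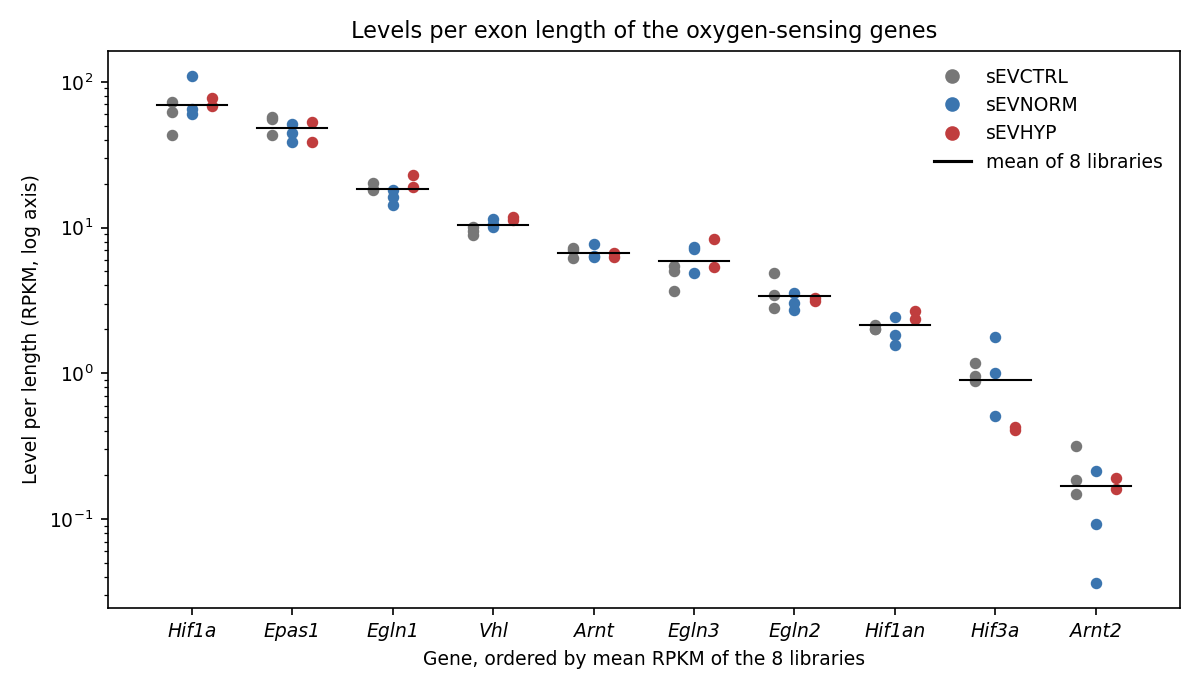
Level per exon length (RPKM, log axis) of the 10 genes in each library, with points coloured by group and a line at the mean of the 8 libraries. Hif1a and Epas1 lie at the top, with means of 69.8 and 47.8 RPKM, and Hif3a and Arnt2 at the bottom, with means of 0.892 and 0.168 RPKM.

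Shares within a class differed between libraries. Hif1a made up 43.0 to 73.6% of the RPKM of the alpha subunits and Hif3a 0.330 to 1.49%. The ratio of Hif1a to Epas1 was above 1 in 7 of 8 libraries, with the highest value, 2.82, in sEVNORM replicate 2 and the lowest, 0.766, in sEVCTRL replicate 3. The alpha subunits together were 14.3 to 23.3 times as abundant as Arnt, their general partner, when measured per length of all exons. This ratio depends on the length used and is lower with the longest transcript. There the mean of Arnt was 12.4 RPKM in place of 6.72, that of Hif1a 87.1 in place of 69.8, and that of Epas1 48.5 in place of 47.8. Among prolyl hydroxylases, Egln1 held 62.0 to 72.7% of the RPKM, Egln3 14.5 to 27.7% and Egln2 9.80 to 17.3%.

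The steadiest member was Vhl. Its residual SD within groups, on the log2 CPM scale, was 0.0914, and only 2.55% of the tested genes varied less. Arnt (residual SD 0.136) and Egln1 (0.156) were also steady. The least steady were Hif3a (0.577) and Arnt2 (0.777), the members with the lowest levels.

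Differences between groups were tested for all 17858 genes in one edgeR model of the 3 groups, and a gene was called when its unadjusted P was under 0.05, the threshold of the study. The P values measure the spread between these libraries, for which the labels name no animal. All 10 members passed the filter on low counts. In sEVHYP against sEVCTRL, 1 of 10 members was called, Hif3a, and it was lower, beside 1.06% of all genes called lower, 1.39% called higher and 2.45% called in either direction. In sEVHYP against sEVNORM, Hif3a was again the 1 member called, and lower, beside 1.7% of all genes called lower and 3.95% in either direction. These comparisons share the sEVHYP libraries. In sEVNORM against sEVCTRL no member was called at that unadjusted P by edgeR or by DESeq2, beside 1.62% of all genes (0.89% higher and 0.734% lower). After Benjamini-Hochberg adjustment over all genes, no gene passed 0.05 in edgeR in any of the 3 comparisons, although 438, 706 and 290 genes had an unadjusted P under 0.05 and DESeq2 on all 8 libraries gave 2, 19 and 2 genes past the adjusted threshold. The edgeR adjusted P of every member was 1.00 in all 3 comparisons, so each difference is given with its standard error and 95% interval and with its side of the unadjusted threshold. Libraries of the groups did not overlap for 3 of 10 members in sEVHYP against sEVCTRL (Hif1an, Vhl and Hif3a) beside 12.8% of all genes, for 2 of 10 in sEVHYP against sEVNORM (Egln1 and Hif3a) beside 22.8%, and for none in sEVNORM against sEVCTRL beside 4.86% (2.69% higher and 2.17% lower).

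**Figure D2:**
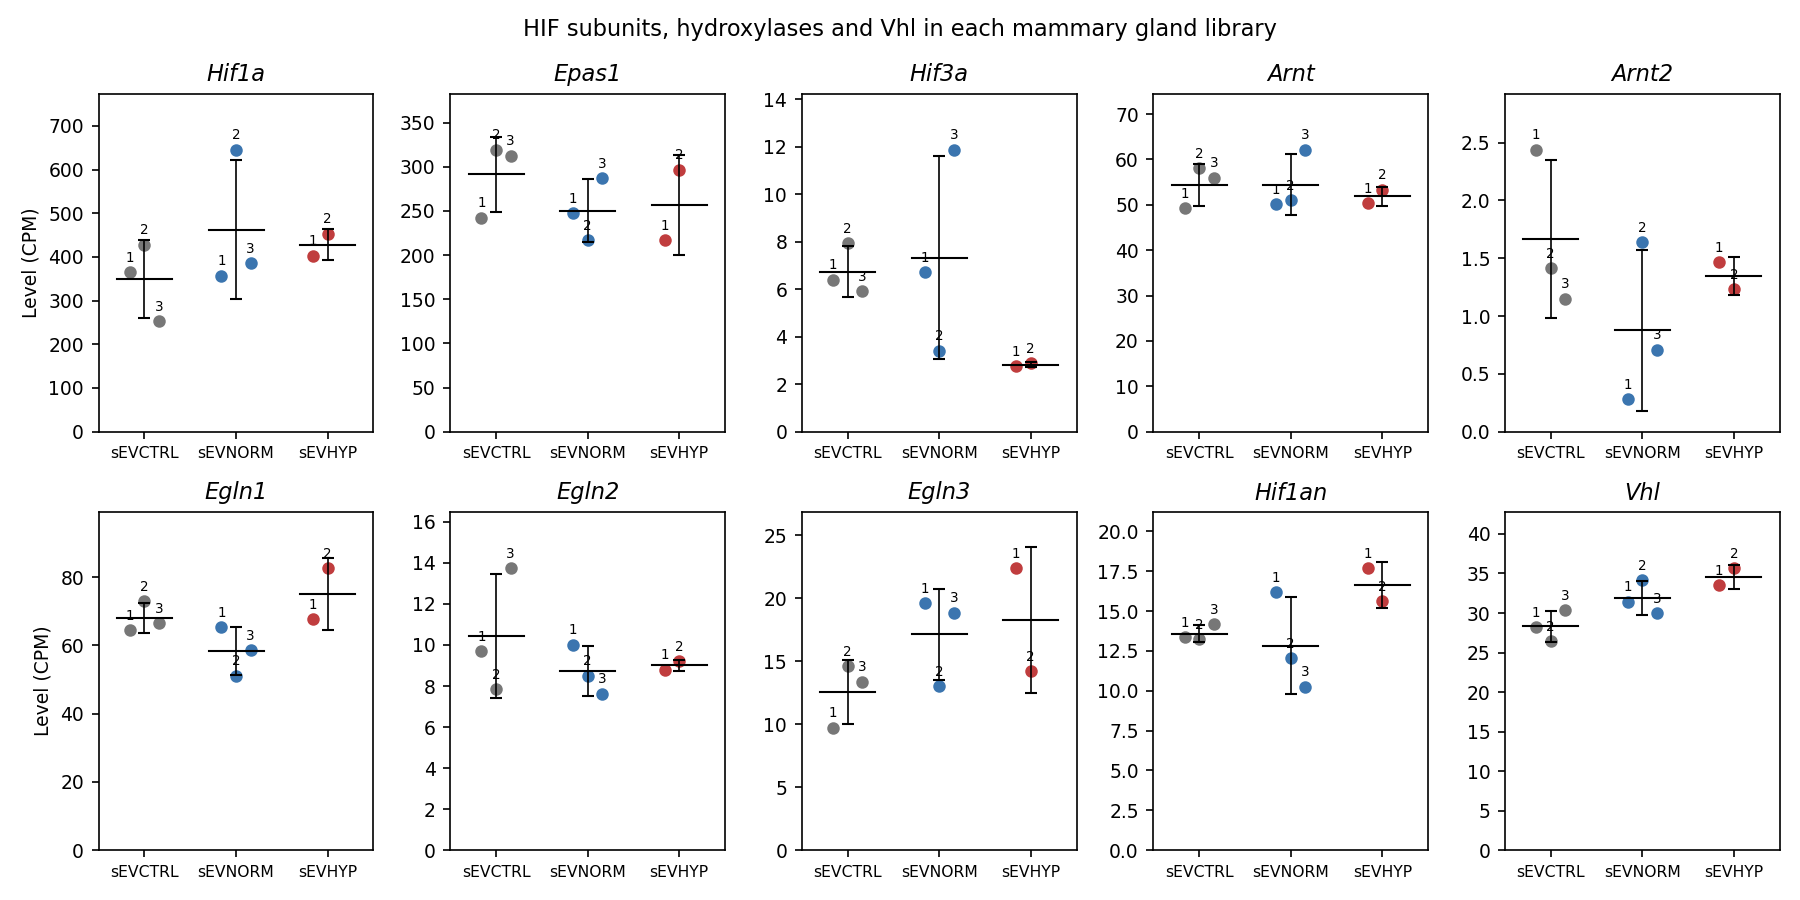
Level (CPM, linear axes from 0) of each of the 10 genes by group, with 1 point per library and its replicate number, a horizontal line at the group mean and bars of 1 SD. The 2 sEVHYP points for Hif3a, at 2.75 and 2.89 CPM, lie under every other library, whereas those for Hif1a lie within the range of the other 6.

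Hif1a, the widely expressed alpha subunit, lies at chr12:73901375-73947530 on the plus strand of GRCm38. Its level was 366, 428 and 252 CPM in sEVCTRL, 357, 645 and 386 CPM in sEVNORM, and 403 and 453 CPM in sEVHYP. The highest library was sEVNORM replicate 2, and the sEVHYP libraries lay among the others. Means were 349 ± 89.1 CPM (SD, n = 3), 463 ± 159 (n = 3) and 428 ± 35.2 (n = 2). On the log2 scale, sEVHYP differed from sEVCTRL by 0.30 (SE 0.30), with a 95% interval from -0.39 to 0.98. Against sEVNORM the value was -0.11 (SE 0.30), with an interval from -0.79 to 0.57. A rise of Hif1a mRNA in the whole gland was thus not detectable with these libraries, and a rise as large as the upper bounds, 1.97-fold against sEVCTRL and 1.49-fold against sEVNORM, lies within the error. The paper reports more HIF1α mRNA in isolated luminal cells by RT-PCR and more HIF1α protein in the gland by immunohistochemistry. Whole-gland counts separate no cell type and hold no protein, so they do not test either report. Exons of Hif1a overlap 330 bases of the antisense gene Gm15283 and 148 bases of Gm49321, which held at most 5 and 13 counts, and whether the counting used strand is not stated.

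Epas1 (HIF2α), an alpha subunit best known from endothelium and other specialized cells, lies at chr17:86753700-86833410. It had 242, 319 and 313 CPM in sEVCTRL, 248, 217 and 287 CPM in sEVNORM, and 217 and 297 CPM in sEVHYP. The libraries of the 3 groups were interleaved. Epas1 in sEVHYP differed by a log2 fold change of -0.18 (95% interval -0.66 to 0.30) from sEVCTRL and of 0.04 (-0.45 to 0.52) from sEVNORM. Across the 8 libraries Epas1 followed the summed level of 8 endothelial markers (Pecam1, Cdh5, Kdr and others), with Pearson's r = 0.946 (exact permutation P = 0.00126) and Spearman's rho = 0.952 (exact permutation P = 0.00114). The sum does not describe each marker. Pecam1, the largest of them, was 273 CPM in sEVNORM replicate 2 and 215 CPM in sEVHYP replicate 2, where Epas1 was 217 and 297 CPM. Over the 120 pairs of a member and a marker list that were computed, the adjusted permutation P was 0.0759 for r and 0.0685 for rho, and no pair passed 0.05. Without sEVCTRL replicates 2 and 3, the libraries farthest from the median marker sum, r was 0.921. Arnt also followed the endothelial sum, with r = 0.822 (exact permutation P = 0.0151, adjusted 0.361) and rho = 0.714 (exact permutation P = 0.0576, adjusted 0.576). The endothelial sum was 591 to 735 CPM in sEVCTRL, 565 to 687 CPM in sEVNORM and 548 to 637 CPM in sEVHYP, and its part in the Epas1 levels was not tested. No endothelial marker was at 0 in all libraries.

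Hif3a, the alpha subunit known for splice forms that counter HIF activity, lies at chr7:17031507-17062427 on the minus strand and was sparsely expressed. It had 126, 174 and 108 counts in sEVCTRL, 167, 77 and 251 counts in sEVNORM, and 60 and 54 counts in sEVHYP. As CPM these were 6.40, 7.93 and 5.91, then 6.72, 3.41 and 11.9, then 2.75 and 2.89. Both sEVHYP libraries lay under all 6 others, with sEVNORM replicate 2 the nearest. The difference passed the unadjusted threshold, at a log2 fold change of -1.26 against sEVCTRL (SE 0.45, edgeR adjusted P = 1.00), which is a level of 0.418 times that of sEVCTRL with a 95% interval from 0.205 to 0.852. It passed against sEVNORM at -1.38 (SE 0.45, edgeR adjusted P = 1.00), or 0.385 times with an interval from 0.189 to 0.784. The groups did not overlap in either comparison, which was so for 6.08% of all genes lower in sEVHYP than in sEVCTRL and for 10.5% lower than in sEVNORM. Between sEVNORM and sEVCTRL the log2 fold change was 0.12 (SE 0.40).

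The Hif3a call was sensitive to single libraries. Against sEVCTRL it was lost without sEVCTRL replicate 2 (-1.12), without sEVHYP replicate 1 (-1.22) or without sEVHYP replicate 2 (-1.31). Against sEVNORM the log2 fold change shrank to -0.85 without sEVNORM replicate 3, which ended the call, and the call was also lost without either sEVHYP library (-1.34 and -1.43). With the mean log2 CPM of 9 skeletal muscle markers as a covariate it was kept, at -1.54 against sEVCTRL and -1.84 against sEVNORM. sEVNORM replicate 3, the library with the most Hif3a, had 62.1 CPM of summed keratinocyte markers, where the other 7 libraries had 8.15 to 12.8 CPM. In the sEVHYP libraries those markers, 9.25 and 10.9 CPM, were within the range of sEVCTRL, 8.15 to 12.8 CPM. Over the 8 libraries Hif3a and the keratinocyte sum had r = 0.694 (exact permutation P = 0.0190, adjusted 0.379) and rho = 0.714 (exact permutation P = 0.0576, adjusted 0.576), and without sEVCTRL replicate 3 and sEVNORM replicate 3 r was 0.716.

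**Figure D3:**
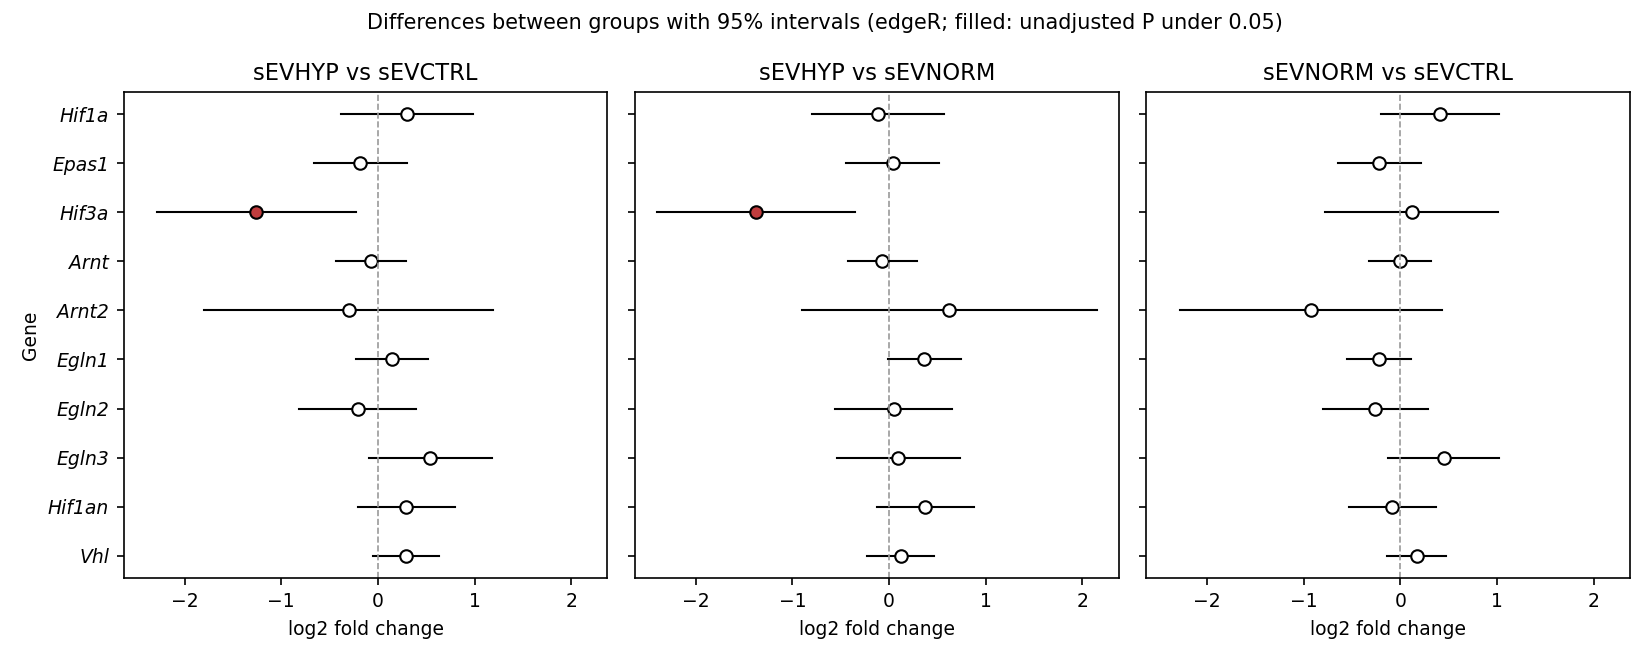
Log2 fold change of each gene in the 3 comparisons, with bars for 95% intervals and filled points for an unadjusted P under 0.05. Hif3a is filled in both sEVHYP comparisons, at -1.26 and -1.38, and every other interval includes 0.

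Arnt, the beta subunit shared by the HIF alpha proteins and the aryl hydrocarbon receptor, lies at chr3:95434388-95497240. It had 49.3, 58.1 and 56.0 CPM in sEVCTRL, 50.2, 51.0 and 62.1 CPM in sEVNORM, and 50.3 and 53.4 CPM in sEVHYP. The groups overlapped throughout. The log2 fold change of sEVHYP was -0.07 (SE 0.16) in each comparison, with intervals from -0.43 to 0.29 in both. Arnt2, the beta subunit best known from neurons, at chr7:84246278-84410176, was close to the limit of detection, with 48, 31 and 21 counts in sEVCTRL, 7, 37 and 15 counts in sEVNORM, and 32 and 23 counts in sEVHYP. Its log2 fold change was -0.30 (SE 0.66) against sEVCTRL and 0.62 (SE 0.67) against sEVNORM, and neither passed the unadjusted threshold. Without sEVNORM replicate 2, the sEVNORM library with the most Arnt2 counts, it was called against sEVNORM at 1.45, and at -1.75 between sEVNORM and sEVCTRL, where it was not called with all libraries. Exons of Arnt2 share 214 bases with the antisense gene Gm30873, which held at most 8 counts.

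Egln1 (PHD2), the main oxygen sensor among the prolyl hydroxylases, lies at chr8:124908587-124949324. It had 64.5, 73.0 and 66.5 CPM in sEVCTRL, 65.4, 51.1 and 58.6 CPM in sEVNORM, and 67.7 and 82.6 CPM in sEVHYP. Both sEVHYP libraries were above the 3 sEVNORM libraries, a pattern seen for 12.3% of all genes, and overlapped with sEVCTRL. Egln1 differed by 0.36 (SE 0.17, 95% interval -0.01 to 0.74) on the log2 scale from sEVNORM and by 0.14 (SE 0.17) from sEVCTRL, and neither passed the unadjusted threshold. Without sEVNORM replicate 1 or sEVHYP replicate 1 the comparison with sEVNORM passed it, at 0.45 and 0.50. Egln1 followed the summed level of the skeletal muscle markers, with r = 0.890 (exact permutation P = 0.00119, adjusted 0.0759) and rho = 0.952 (exact permutation P = 0.00114, adjusted 0.0685), and r was 0.732 without sEVNORM replicate 2 and sEVHYP replicate 2. The muscle sum was 627 to 7976 CPM in sEVCTRL, 9.13 to 2845 CPM in sEVNORM and 4294 and 12012 CPM in sEVHYP. This sum does not describe each marker either. Myh4, like Egln1, was lowest in sEVNORM replicate 2 (1.95 CPM) and highest in sEVHYP replicate 2 (4106 CPM). Myh1 was 1.86 CPM in sEVCTRL replicate 3 and 75.8 CPM in sEVNORM replicate 3, where Egln1 was 66.5 and 58.6 CPM. With the muscle covariate, the Egln1 difference from sEVNORM was 0.22. Egln1 ran opposite to the summed level of the myeloid cell markers, with r = -0.867 (exact permutation P = 0.00387, adjusted 0.155) and rho = -0.833 (exact permutation P = 0.0154, adjusted 0.461), and r was -0.792 without sEVCTRL replicate 2 and sEVHYP replicate 2. Most of that sum, 883 to 1492 CPM, was Lyz2, at 679 to 1276 CPM. The myeloid marker Adgre1 did not run opposite, at 72.1 CPM in sEVCTRL replicate 2 and 32.7 CPM in sEVNORM replicate 2, where Egln1 was 73.0 and 51.1 CPM. Muscle was not the only list that Egln1 followed. It also rose with the basal epithelial sum (r = 0.735, rho = 0.833) and the peripheral nerve sum (r = 0.748, rho = 0.738). Without sEVCTRL replicate 1 and sEVNORM replicate 2 the basal r was 0.826. Egln1 ran opposite to the B and plasma cell sum (r = -0.738, rho = -0.762) and the T cell sum (r = -0.759, rho = -0.690). Of the 120 pairs of a member and a marker list, none passed an adjusted P of 0.05.

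Egln2 (PHD1), the hydroxylase known as estrogen-inducible, lies at chr7:27158658-27166802. It had 9.70, 7.84 and 13.7 CPM in sEVCTRL, 10.02, 8.51 and 7.62 CPM in sEVNORM, and 8.80 and 9.21 CPM in sEVHYP. The sEVHYP libraries fell inside the range of each other group, with log2 fold changes of -0.21 (SE 0.27) and 0.05 (SE 0.27). Egln3 (PHD3), at chr12:54178981-54203860, had 9.70, 14.6 and 13.4 CPM in sEVCTRL, 19.6, 13.0 and 18.8 CPM in sEVNORM, and 22.4 and 14.2 CPM in sEVHYP. The highest library was sEVHYP replicate 1, and the other sEVHYP library lay within the sEVCTRL range. For Egln3 the log2 fold change was 0.54 (SE 0.28, 95% interval -0.10 to 1.18) for sEVHYP against sEVCTRL, 0.45 (SE 0.25) for sEVNORM against sEVCTRL, and 0.09 (SE 0.28) for sEVHYP against sEVNORM. Without sEVHYP replicate 2 the value against sEVCTRL was 0.82 and passed the threshold, and without sEVHYP replicate 1 it was 0.18 and did not. With the muscle covariate the difference of sEVNORM from sEVCTRL was 0.59 and passed the threshold.

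Hif1an, the asparaginyl hydroxylase, lies at chr19:44562850-44576274. It had 13.4, 13.2 and 14.2 CPM in sEVCTRL, 16.2, 12.1 and 10.3 CPM in sEVNORM, and 17.7 and 15.6 CPM in sEVHYP. Vhl, the substrate receptor of the ubiquitin ligase, at chr6:113623959-113631633, had 28.2, 26.4 and 30.4 CPM in sEVCTRL, 31.5, 34.2 and 30.0 CPM in sEVNORM, and 33.5 and 35.6 CPM in sEVHYP. Both genes were higher in the 2 sEVHYP libraries than in the 3 sEVCTRL libraries, which was so for 6.7% of all genes, and both overlapped with sEVNORM. The differences from sEVCTRL, 0.29 (SE 0.22) for Hif1an and 0.29 (SE 0.15) for Vhl on the log2 scale, did not pass the test. The upper bound for Vhl was 1.55-fold. Against sEVNORM the values were 0.38 (SE 0.22) and 0.12 (SE 0.15), and without sEVNORM replicate 1 the Hif1an value was 0.58 and passed the threshold.

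**Figure D4:**
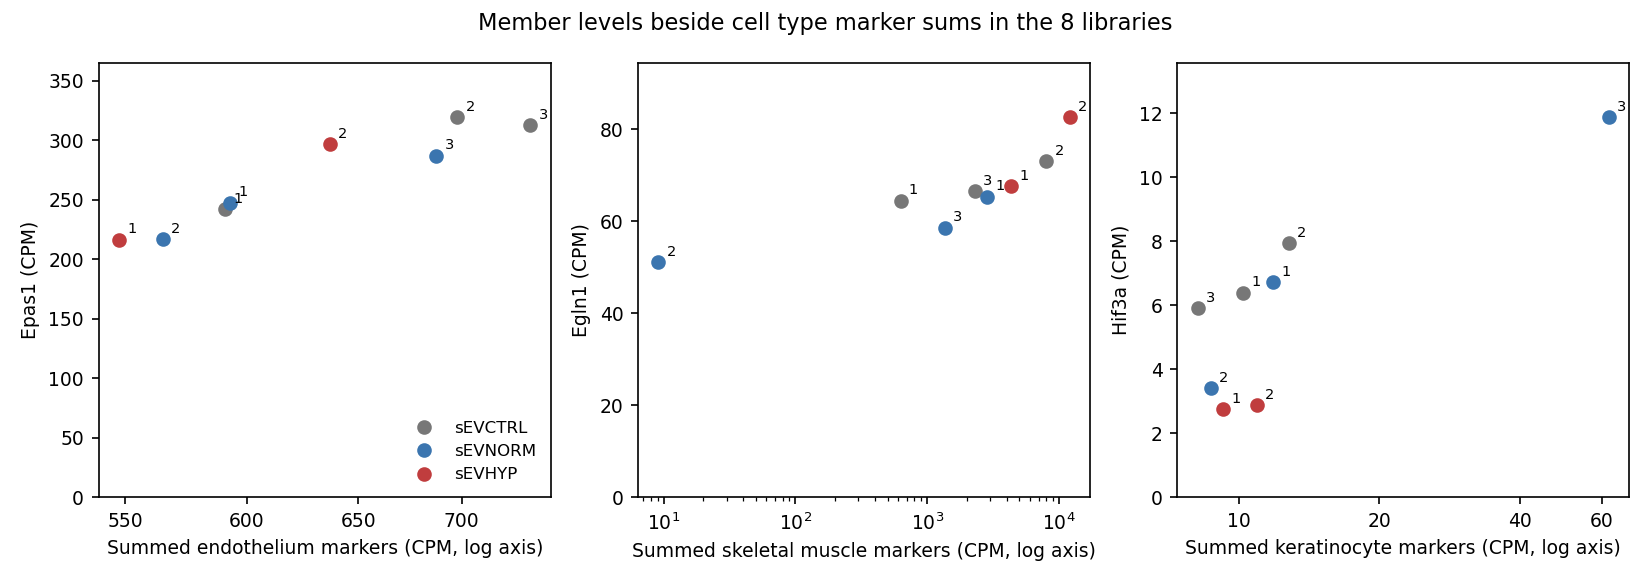
Level (CPM) of Epas1, Egln1 and Hif3a against the summed level of endothelial, skeletal muscle and keratinocyte markers (CPM, log axes), with 1 point per library, numbered by replicate and coloured by group. Epas1 and Egln1 climb with their marker sums (r = 0.946 and 0.890), and sEVNORM replicate 3 lies apart in the keratinocyte panel at 62.1 CPM.

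The genes whose log2 CPM pattern over the 8 libraries was most like that of a member were taken from 11757 genes with a mean of at least 5 CPM, as a description. For Hif1a they were Arfgef1 (r = 0.978), Ranbp2 (0.971) and Mtpn (0.968), each highest in sEVNORM replicate 2 and lowest in sEVCTRL replicate 3. For Epas1 they were Tshz2 (0.989), Apol6 (0.987) and Tln2 (0.985). For Hif3a they were Rnf144b (0.970), Bud13 (0.944) and Smpdl3a (0.942), whose levels spanned less than that of Hif3a, from 16.2 to 25.5 CPM for Rnf144b. For Egln3 they were Tmprss13 (0.948), Aig1 (0.919) and Serpinb5 (0.904). These points share libraries and depth.

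Around the members, the pathway's other proteins were counted in 4 lists, to be read beside the 2.45%, 3.95% and 1.62% of all genes called in sEVHYP against sEVCTRL, sEVHYP against sEVNORM and sEVNORM against sEVCTRL. Of the 4 partners of VHL in its ligase, none was called in any comparison by edgeR, and Eloc and Rbx1, the adaptor and the RING subunit, differed from sEVCTRL by 0.13 (SE 0.16) and -0.02 (SE 0.15) on the log2 scale in sEVHYP. None of the 7 coactivators and competitors was called by edgeR in any comparison, with Ep300 at 0.14 (SE 0.17) and Ncoa2 at -0.03 (SE 0.15). None of the 17 other regulators of HIF alpha or hydroxylase stability was called by edgeR either, with Rack1, which promotes HIF1α degradation, at -0.17 (SE 0.28) and the chaperone gene Hsp90ab1 at -0.10 (SE 0.16). Of the 9 tested among 11 other bHLH-PAS factors, the protein family to which HIF belongs, 1 was called in each sEVHYP comparison and was higher, beside 1.39% and 2.25% of all genes called higher. It was Sim1, a factor known from hypothalamus and kidney, at 0 to 0.473 CPM in the other groups and 0.641 and 2.14 CPM in sEVHYP. Sim1 would not have passed the filter on low counts without its sEVHYP libraries, the group in which it is high, so its values are a description. The call was lost in both comparisons with the muscle covariate and without sEVHYP replicate 2. The circadian factor Clock and the dioxin receptor gene Ahr differed from sEVCTRL by 0.26 (SE 0.21) and -0.02 (SE 0.17).

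The HIF target list, 34 genes of glycolysis, vessel growth, pH and cell survival, held none called by edgeR in sEVHYP against sEVCTRL, beside 2.45% of all genes, with 22 genes higher, 12 lower and a median log2 fold change of 0.10, beside -0.02 over all genes. Of all 17858 genes tested, 8475 were higher and 9383 lower in that comparison. DESeq2 on all 8 libraries and edgeR on only the 2 groups each called 1 target there, lower, DESeq2 on only the 2 groups called 2, and leaving out 1 library gave 0 to 3, with 3 without sEVCTRL replicate 2. In sEVHYP against sEVNORM, 5 of 34 were called and all 5 were higher, beside 2.25% of all genes called higher. They were the glycolytic genes Aldoa (1.17, SE 0.35), Hk2 (0.76, SE 0.19), Ldha (0.60, SE 0.22) and Pgk1 (0.53, SE 0.15) and the mTORC1 inhibitor Ddit4 (1.196, SE 0.32), each with an edgeR adjusted P = 1.00. Hk2, Pgk1 and Ddit4 were called with any 1 library left out, while Aldoa lost its call without sEVHYP replicate 2 (0.92) and Ldha without sEVNORM replicate 2 or 3 or either sEVHYP library (0.49 to 0.59). The list's median was 0.06, beside -0.02 over all genes. It held 25 genes higher and 9 lower, beside 8402 higher and 9456 lower of all genes tested. In sEVNORM against sEVCTRL, which shares the sEVNORM libraries, 3 genes of the list were called and lower, Ddit4 (-0.73, SE 0.29), Hk2 (-0.49, SE 0.17) and Pgk1 (-0.35, SE 0.13), beside 0.734% of all genes called lower. Each of these calls was lost when 1 library was left out, Ddit4 without sEVCTRL replicate 2 (-0.37) or sEVNORM replicate 1 (-0.61) or 2 (-0.63), Hk2 without sEVNORM replicate 1 (-0.47) or 2 (-0.36), and Pgk1 without sEVCTRL replicate 1 (-0.36) or 3 (-0.29) or sEVNORM replicate 2 (-0.34) or 3 (-0.31). Without sEVNORM replicate 2 the list held none called, and without sEVCTRL replicate 1 it held 6. Glycolytic genes were among the results already known when the list was chosen, so their direction is not independent evidence.

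Per library, Pgk1 had 155, 136 and 164 CPM in sEVCTRL, 128, 116 and 112 CPM in sEVNORM, and 170 and 172 CPM in sEVHYP. Hk2 had 34.5, 36.6 and 34.9 CPM, then 24.6, 20.3 and 30.6 CPM, then 41.2 and 44.2 CPM. In both, the sEVHYP libraries were the highest and the sEVNORM libraries the lowest of the 8. Aldoa, which is also the aldolase of skeletal muscle, had 588, 266 and 383 CPM in sEVNORM and 787 and 1066 CPM in sEVHYP, with the muscle sum 9.13 to 2845 CPM and 4294 to 12012 CPM in the same groups. With the muscle covariate, 4 of the 5 genes were still called against sEVNORM, Aldoa at 0.77, Ddit4 at 0.94, Hk2 at 0.60 and Pgk1 at 0.54, and Ldha, at 0.50, was not. Other familiar HIF targets did not pass the unadjusted threshold against sEVNORM, with Vegfa, the vessel growth factor, at 0.48 (SE 0.27), Car9, a pH regulator, at 0.23 (SE 0.52), Slc2a1, the glucose transporter, at -0.08 (SE 0.21) and Bnip3, a mitophagy receptor, at -0.06 (SE 0.42). These 4 genes fall outside the naming rule and were chosen after their values were seen.

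**Figure D5:**
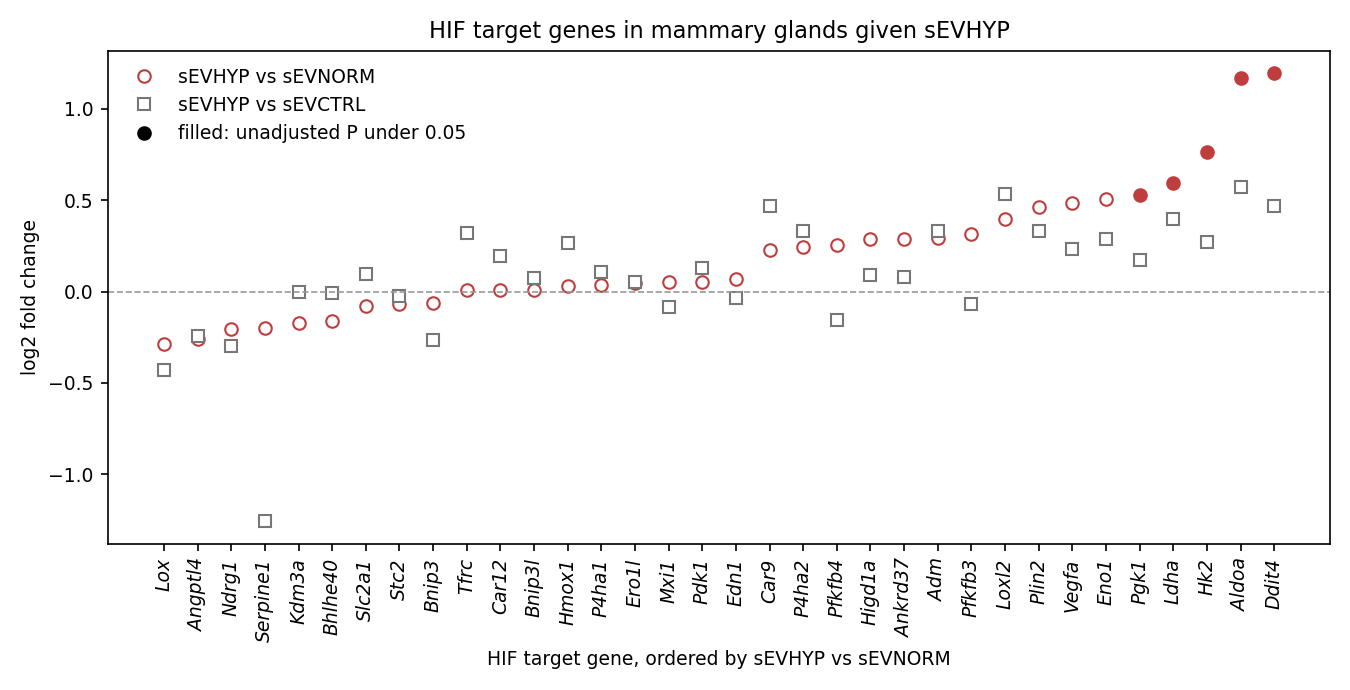
Log2 fold change of the 34 HIF target genes in sEVHYP against sEVNORM (circles) and against sEVCTRL (squares), ordered by the former, with filled symbols for an unadjusted P under 0.05. The 5 filled circles, from Pgk1 at 0.53 to Ddit4 at 1.196, stand at the right end, and no square is filled.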

How the data were processed

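PolyA RNA of 8 mammary glands (3 sEVCTRL, 3 sEVNORM, 2 sEVHYP) was sequenced with a stranded library kit. Per the labels and the paper, the authors used STAR on mm10 and RSEM 1.2.12 with Ensembl release 89. What they deposited is raw counts per gene, all of them whole numbers, and the sources used here do not state how the estimates were rounded or whether strand was used. Library totals ran from 18194996 to 24622569, and a count of 0 allows up to 3 counts (counting error only). No libraries were close enough to be duplicates. Symbols, GRCm38 positions and exon lengths came from GENCODE M21 (51596 of 51789 genes), and 0.0389% of the counts had no symbol.

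Genes were kept by filterByExpr of edgeR 4.0.16 (R 4.3.3) at a count minimum of 10, scaled with TMM (factors 0.975 to 1.02) and tested two-sided with the quasi-likelihood F-test on 5 residual and 4.08 prior degrees of freedom. Adjustment was by Benjamini-Hochberg over the 17858 genes tested. Intervals are 95% Wald intervals from the fitted weights. Log2 CPM used a prior count of 2. Correlations with marker sums used log2(CPM + 0.5) for both the members and the sums, and exact permutation of the 8 libraries. The fit was tested on simulated data.

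The members and all gene lists were chosen with earlier results of these data known. All 10 members are described, with the list genes past an unadjusted P of 0.05 in any comparison, the 2 of each list with the highest mean CPM, and the 3 genes most like Hif1a, Epas1, Hif3a and Egln3 in pattern. Alternatives were DESeq2 size factors, DESeq2 1.42.0, edgeR on only the 2 groups compared, other filters, the replicate number as a block, and each library left out. The same for the pathway lists, and the skeletal muscle covariate, were added after seeing the data. Of the 12 marker lists, white adipocyte, luminal epithelium, skeletal muscle, endothelium and 8 others, the summed levels stand in the text or the closing section.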

Additional observations from a re-analysis of the deposited data

How the results depend on the processing

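With 2 sEVHYP libraries, the error of a low gene was large and 1 library could decide a call. Leaving out 1 library at a time gave, against sEVCTRL, 341 to 1472 genes called (1472 without sEVCTRL replicate 2), 0 to 1 members, 0 to 3 HIF targets and 0 to 3 genes of the other 4 lists. Against sEVNORM it gave 415 to 986 genes (415 without sEVHYP replicate 2), 0 to 3 members (3 without sEVNORM replicate 1: Egln1, Hif1an and Hif3a; 2 without sEVNORM replicate 2: Arnt2 and Hif3a), 4 to 5 targets and 0 to 2 others. Between sEVNORM and sEVCTRL it gave 222 to 1018 genes, 0 to 2 members (2 without sEVNORM replicate 2: Arnt2 and Egln3), 0 to 6 targets and 0 to 1 others. A library left alone in its group was assumed to vary like the other groups. Directions turned only for members that were not called. Against sEVCTRL the log2 fold changes ran from -0.44 to 0.030 for Epas1, -0.51 to 0.068 for Arnt2, -0.020 to 0.28 for Egln1 and -0.38 to 0.037 for Egln2. Against sEVNORM they ran from -0.27 to 0.21 for Hif1a, -0.22 to 0.25 for Epas1, -0.12 to 0.035 for Arnt, -0.042 to 0.16 for Egln2 and -0.27 to 0.37 for Egln3, and between sEVNORM and sEVCTRL from -0.41 to 0.46 for Hif3a, -0.11 to 0.055 for Arnt and -0.28 to 0.056 for Hif1an.

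Without a filter on low counts, 672 genes were called against sEVCTRL, 1102 against sEVNORM and 533 between sEVNORM and sEVCTRL, with 1 target against sEVCTRL and 2 genes of the other lists in each sEVHYP comparison, and with at least 10 counts in every library those other lists had 0. DESeq2 on only the 2 groups compared called 1168 genes against sEVNORM (81 past an adjusted P of 0.05), 2 targets against sEVCTRL and 5 between sEVNORM and sEVCTRL. DESeq2 on all 8 libraries and edgeR on only the 2 groups each called 1 target against sEVCTRL. In the DESeq2 fit of 2 groups, Hif3a had a DESeq2 adjusted P = 0.316 against sEVCTRL and a DESeq2 adjusted P = 0.377 against sEVNORM. The near-0 value of Arnt between sEVNORM and sEVCTRL turned to 0.000906 without a filter and to 6.64e-05 with at least 10 counts in every library. DESeq2 size factors moved the median gene by less than 0.1 on the log2 scale in each comparison and changed no call of a member.

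The replicate numbers shared by the groups do not pair the libraries: deviations from the group means correlated at -0.42 to 0.37 between libraries of the same number. With the number as a replicate block, no member was called in either sEVHYP comparison (Hif3a -1.12 and -1.10), Hif3a between sEVNORM and sEVCTRL turned to -0.021, 1 target was called against sEVCTRL and 0 genes of the other lists against sEVNORM.

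The skeletal muscle covariate, chosen after seeing the data, gave 2 targets and 0 others against sEVCTRL, 2 members (Hif3a and Arnt2, at 1.70) and 3 others against sEVNORM, and 2 members (Egln3 and Arnt2, at -1.57) between sEVNORM and sEVCTRL. It turned Arnt2 to 0.12 against sEVCTRL, Hif1a to 0.17, Epas1 to -0.15 and Egln3 to -0.17 against sEVNORM, and Arnt to 0.044 between sEVNORM and sEVCTRL, none of them called. The cause of these changes was not tested.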

Other observations

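The other marker lists gave the setting in which the members were read. No marker of any list was at 0 in all libraries. White adipocyte markers summed to 6146 to 10324 CPM in sEVCTRL, 5212 to 8331 CPM in sEVNORM and 5530 to 8969 CPM in sEVHYP, and luminal epithelial markers to 894 to 1765, 1357 to 1617 and 1430 to 1950 CPM. Most of the luminal sum was Prlr, at 486 to 1229 CPM. Basal epithelial markers summed to 382 to 587, 404 to 511 and 573 to 598 CPM, fibroblast markers to 2590 to 4368, 2663 to 4348 and 3371 to 4143 CPM, and peripheral nerve markers to 424 to 554, 272 to 491 and 494 to 516 CPM. B and plasma cell markers summed to 975 to 2932, 1268 to 2358 and 678 to 1335 CPM, T cell markers to 195 to 337, 267 to 367 and 184 to 323 CPM, and myeloid markers to 1148 to 1400, 1287 to 1492 and 883 to 1322 CPM. Brown adipocyte markers were low, at 27.5 to 39.1, 23.1 to 36.2 and 40.4 to 70.0 CPM. The sums of both sEVHYP libraries were above the other 6, the lower of them, 40.4 CPM, by little. No single brown adipocyte marker had both sEVHYP libraries above all others. Ucp1, for example, was 0.321 CPM in sEVHYP replicate 1 and 2.04 CPM in sEVNORM replicate 2. Epas1 also followed the white adipocyte sum (r = 0.877 with an exact permutation P = 0.00632, adjusted 0.190, and rho = 0.738 with an exact permutation P = 0.0458, adjusted 0.576), and r was 0.682 without sEVNORM replicate 2 and sEVHYP replicate 1. The markers of that sum differed. In sEVCTRL replicate 2 and sEVHYP replicate 1, Epas1 was 319 and 217 CPM. There Fabp4, the largest marker, was 3781 and 2419 CPM, and Retn was 793 and 992 CPM.

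Among the members themselves, Hif1a and Epas1 did not move together over the 8 libraries (r = -0.46, as a description over libraries that share 3 groups). Hif3a and Vhl moved in opposite directions (r = -0.78), and Epas1 and Arnt in the same direction (r = 0.74). These 2 pairs were picked as the strongest of each sign among all member pairs, and they were not tested. Hif1a and Egln2 were close behind, at r = -0.71.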
